A study of Mus musculus with 8 samples.

Results

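The 10 genes described here encode the machinery by which a muscle cell releases calcium on excitation and takes it back into its store: Cacna1s, Ryr1, Trdn, Jph1, Jph2, Casq1, Casq2, Atp2a1, Atp2a2 and Sln. They were taken by name, as all non-control probes that the array files assign to these symbols, which gave 14 of 55681 probes on the array. The cells were C2C12, a mouse myoblast line that fuses into myotubes in culture, harvested on day 4 of differentiation. One group was transfected with an siRNA against macroH2A1.1, one of the splice products of the macroH2A1 histone gene, and the other with a control siRNA, with 4 samples in each. A treatment label calls the first group a knockout, while sample titles and the design text name an siRNA, which lowers a transcript without deleting the gene. Each sample was hybridised to its own 1-colour array, and all 8 arrays share 1 slide and 1 scan. Replicates are labelled biological, but nothing says that they came from separate cultures, so p-values measure only the spread between these samples. With 4 arrays a group, that number sets how precise each value can be.

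In skeletal muscle the T-tubule carries the action potential into the fibre, where the voltage sensor Cacna1s touches and opens the release channel Ryr1 in the membrane of the sarcoplasmic reticulum. Junctophilins hold both membranes together, triadin links the channel to calsequestrin, the calcium buffer inside the store, and the SERCA pumps return calcium from the cytosol. Most of these genes are switched on as myoblasts become myotubes, so their RNA can also report how much of a culture has differentiated. Atp2a2 also serves non-muscle cells, so its RNA is not particular to myotubes.

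Values are log2 intensity relative to the 75th percentile of the same array, and a difference is macroH2A1.1 siRNA minus control siRNA on that scale. Macroh2a1, the gene whose splice form the siRNA targets, was lower: for its representative probe the difference was -0.99 (SE 0.10). The probes carry the gene's name only, so the level of macroH2A1.1 itself was not tested. Its limma adjusted p was 0.014 when replicate numbers entered as a block and 0.040 when they did not. From 46.9% to 49.8% of an array's spots exceeded background clearly. Replicate 2 of macroH2A1.1 siRNA was the farthest array along the first principal component, at 60.1 against -27.5 to 8.0 for the other 7. Samples with the same replicate number deviated together, so the comparison was fitted without and with that number as a block, and "rose" and "fell" below refer to the blocked fit. All 12 myotube markers passed the filter on dim probes. Of 10 markers of cycling myoblasts 8 passed it too, and Myf5 and Pax7 did not.

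With the macroH2A1.1 siRNA, the calcium buffer gene Casq1 fell to 43.9% of its control level, and Trdn, Atp2a2 and Jph1 rose by 2.05-fold, 1.95-fold and 1.49-fold. No change passed the threshold for Cacna1s, Ryr1, Jph2, Casq2 or Atp2a1, and Sln lay too near background to be tested. So 9 of the 10 genes were tested, and in the blocked fit 3 rose and 1 fell at a limma adjusted p under 0.05, where 4.13% of all 13720 genes were called higher and 3.88% lower. Without the block 0 of 9 passed in limma, where 0.0219% of all genes did (0.00729% higher and 0.0146% lower). In that fit 4 of 9 had an unadjusted limma p under 0.05, as did 12.1% of all genes. The number of blocked calls depended on which pairs were used: 0 of the 9 passed without pair 1, without pair 3 or with probes near background kept, 2 passed without pair 2 and 4 without pair 4. The median difference over the 9 was 0.14, and over all genes it was 0.00.

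**Figure D1:**
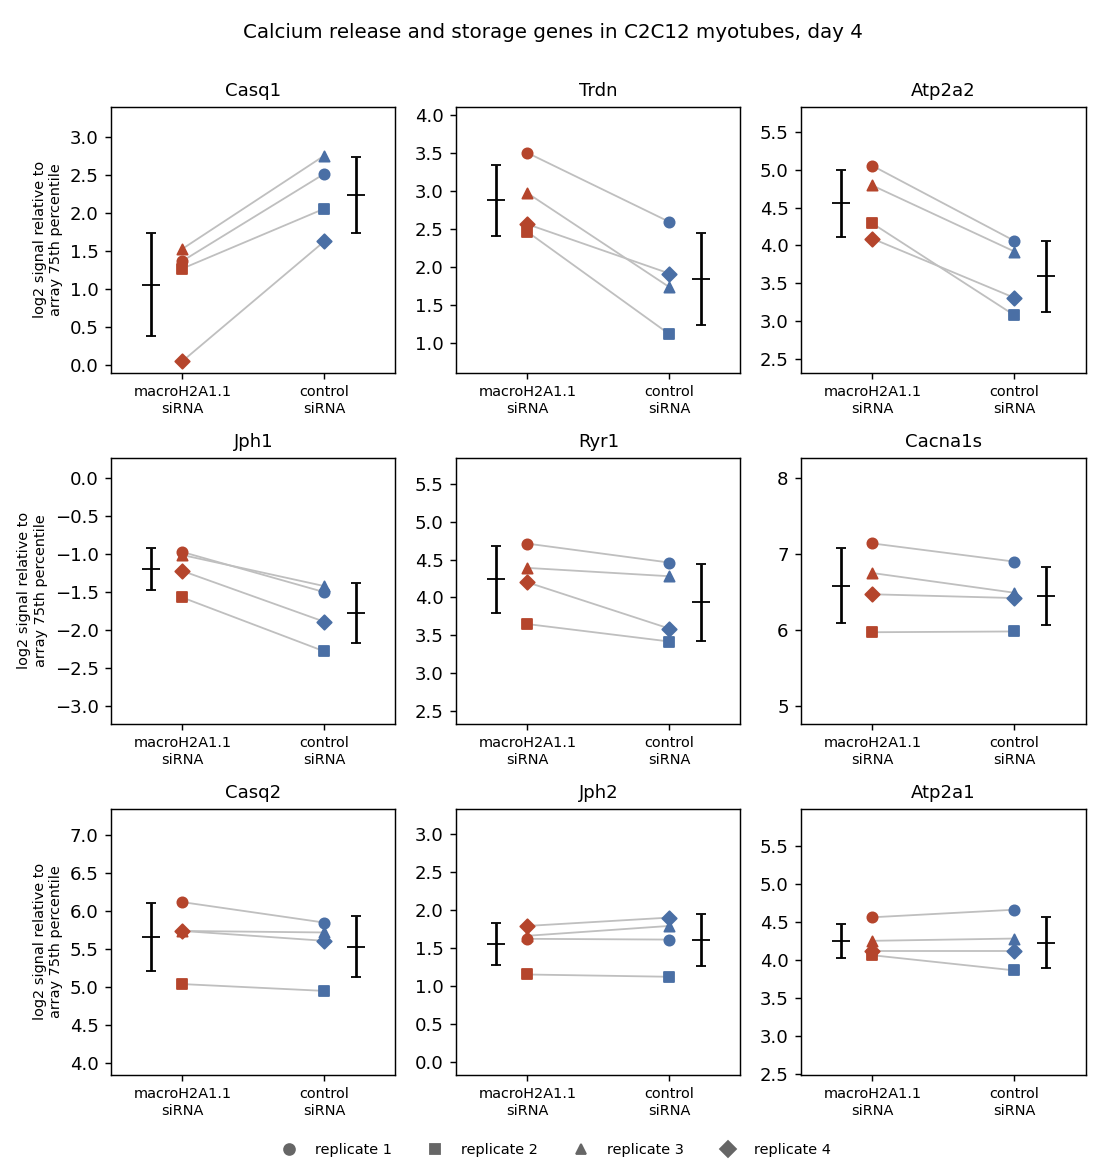
Each panel plots log2 signal (75th percentile of each array set to 0) for 1 gene, with the 4 macroH2A1.1 siRNA samples on the left and the 4 control siRNA samples on the right. Lines join samples of the same replicate number, and bars give the mean ± SD. All panels span 3.5 log2 units, and the groups are separate for Casq1 and Atp2a2.

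Casq1 encodes calsequestrin 1, the main calcium-binding protein inside the sarcoplasmic reticulum of fast skeletal muscle. Its probe is shown because the largest difference among the 9 genes rests on it. It maps to chr1:174140602-174142105, minus strand (mm9), where its 60 bases span 1504 bases of genome, so it crosses at least 1 intron.
Casq1: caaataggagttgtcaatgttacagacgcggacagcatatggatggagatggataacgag

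The Casq1 probe read 1.37, 1.27, 1.53 and 0.05 in macroH2A1.1 siRNA replicates 1 to 4, against 2.52, 2.06, 2.76 and 1.63 in control siRNA replicates 1 to 4. Every macroH2A1.1 siRNA sample lay below every control sample, and replicate 4 was the lowest of both groups. The means were 1.05 ± 0.68 with macroH2A1.1 siRNA and 2.24 ± 0.50 with control siRNA (SD, n = 4 each). Casq1 fell by 1.19 (SE 0.13 with the block, limma adjusted p = 0.016), and without the block the SE was 0.37 and the limma adjusted p 0.261. The 4 pairs differed by -1.15, -0.80, -1.22 and -1.58, so the decrease appeared in each of them. An exact permutation test of this gene alone gave p = 0.0286 (two-sided), and within pairs p = 0.125; both are the smallest values these samples allow. Without macroH2A1.1 siRNA replicate 4 the difference was -0.85.

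Its paralog Casq2, the calsequestrin of heart and slow muscle, did not change in a way the test could show. The probe read 6.12, 5.04, 5.74 and 5.74 with macroH2A1.1 siRNA, against 5.85, 4.95, 5.72 and 5.61 with control siRNA. The groups overlap across their whole range, and replicate 2 was lowest in each. Pairs differed by 0.27, 0.09, 0.02 and 0.12, all above 0. The difference of 0.13 (95% interval -0.04 to 0.29 with the block) had a limma adjusted p of 0.272 with the block and 0.921 without it.

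The promoter table (RefSeq, GRCm38.p6) holds 6 of the 10 genes, and the 250 bases before the start of both calsequestrins are shown because Casq1 is the gene that fell and Casq2 is its paralog. Capitals mark E-boxes (CANNTG, the motif that myogenic bHLH factors bind, which reads the same on both strands), found by a search of those 250 bases. Casq1 lies on the minus strand at chr1:172219896-172220145 and Casq2 on the plus strand at chr3:102086165-102086414.
Casq1: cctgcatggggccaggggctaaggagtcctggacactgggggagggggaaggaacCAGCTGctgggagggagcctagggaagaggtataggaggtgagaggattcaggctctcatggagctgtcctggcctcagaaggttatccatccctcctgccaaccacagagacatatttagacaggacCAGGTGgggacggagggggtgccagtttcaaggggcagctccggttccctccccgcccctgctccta
Casq2: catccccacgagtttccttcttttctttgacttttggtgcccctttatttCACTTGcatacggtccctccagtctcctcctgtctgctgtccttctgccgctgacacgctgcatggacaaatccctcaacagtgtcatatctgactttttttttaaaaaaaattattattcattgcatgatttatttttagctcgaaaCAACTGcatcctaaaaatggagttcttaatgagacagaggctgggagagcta

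Each of these promoters holds 2 E-boxes. The motif is common, since 66.2% of 32851 promoters hold at least 1 in the same window. The share with 2 or more was not counted. Of the other genes with a promoter, Cacna1s holds 2, Atp2a1 1, Jph2 1 at each of its starts and Ryr1 0. A fixed MEF2 pattern, searched on both strands, was in 0.508% of promoters and in none of those of the 6 genes. The pattern is not given here and other forms of the motif may be missed. This count therefore does not show that these promoters lack MEF2 sites.

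Trdn encodes triadin, which spans the store membrane and binds calsequestrin through lysine-rich stretches. The array carries 3 probes for it, all on the plus strand of chromosome 10 (mm9). The probe at 32915796 to 32915855 is shown because its only reading frame without a stop is rich in lysine codons. Capitals mark AAA and AAG codons, which the genetic code reads as lysine, in that frame. They are 7 of its 20 codons. Whether the probe lies in coding sequence, or in a stretch that binds calsequestrin, was not tested.
Trdn: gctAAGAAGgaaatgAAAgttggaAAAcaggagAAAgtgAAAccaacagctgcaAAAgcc

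The brightest Trdn probe, 4185 bases further along at 32919981 to 32920040, represented the gene. It read 3.50, 2.46, 2.97 and 2.56 with macroH2A1.1 siRNA, against 2.59, 1.11, 1.73 and 1.91 with control siRNA. The groups overlap only through control replicate 1, which lay above macroH2A1.1 siRNA replicates 2 and 4. Means were 2.87 ± 0.47 with macroH2A1.1 siRNA and 1.84 ± 0.61 with control siRNA (SD, n = 4 each). Trdn rose by 1.04 (SE 0.13 with the block, limma adjusted p = 0.019), and without the block the SE was 0.33 and the limma adjusted p 0.278. Pairs differed by 0.91, 1.35, 1.24 and 0.64, and the exact permutation test gave p = 0.0857 (two-sided).

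The probe with the marked codons gave a like value. It read 2.33, 1.44, 1.81 and 1.57 with macroH2A1.1 siRNA, against 1.44, -0.08, 0.62 and 0.88 with control siRNA. Its difference of 1.07 (SE 0.14 with the block) had a limma adjusted p of 0.031 among 25000 probes, where 3.15% of probes were called (1.62% higher), and 0.309 without the block, where 0.004% were called. The third probe lies 274283 bases beyond the brightest one, at 33194264 to 33194323. It was not well above background on any of the 8 arrays, at -4.78 to -4.36 with macroH2A1.1 siRNA and -4.83 to -4.26 with control siRNA. The files list 0 RefSeq transcripts for the brightest probe and 1 for each of the others, and no fold is given for the third.

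Junctophilins tether the T-tubule to the store membrane, Jph1 being the skeletal muscle form and Jph2 the form shared with heart. The Jph1 probe maps to chr1:16987545-16987604, minus strand (mm9), and its first 30 bases are shown to identify it.
Jph1: ttgaatattgggttggccattctttttgtt

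Jph1 read -0.97, -1.57, -1.01 and -1.22 with macroH2A1.1 siRNA, against -1.50, -2.28, -1.42 and -1.89 with control siRNA. Only macroH2A1.1 siRNA replicate 2 lay within the control range. The means were -1.19 ± 0.27 with macroH2A1.1 siRNA and -1.77 ± 0.40 with control siRNA (SD, n = 4 each). Jph1 rose by 0.58 (SE 0.07 with the block, limma adjusted p = 0.019), and without the block the SE was 0.22 and the limma adjusted p 0.335. Pairs differed by 0.53, 0.71, 0.41 and 0.67, and the exact permutation test gave p = 0.0857 (two-sided). Its signal is dim, and with the authors' series values the difference was 0.33, with limma adjusted p = 0.013 in the blocked fit.

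Jph2 read 1.62, 1.15, 1.66 and 1.79 with macroH2A1.1 siRNA, against 1.61, 1.12, 1.79 and 1.90 with control siRNA. The groups lie on top of each other. The difference of -0.05 (95% interval -0.20 to 0.10 with the block) had a limma adjusted p of 0.614 with the block and 0.955 without it.

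The SERCA pumps come from separate genes. Atp2a2 encodes SERCA2, the pump of slow muscle, heart and non-muscle cells, and 2 probes measured it on the minus strand of chromosome 5 (mm9). The dimmer one, at 122910660 to 122910719, is shown because the files list it for both protein-coding RefSeq forms; the brighter one, at 122903704 to 122903763, is listed for 1 of them and for a noncoding form.
Atp2a2: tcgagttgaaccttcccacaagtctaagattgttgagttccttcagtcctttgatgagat

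The brighter Atp2a2 probe read 5.05, 4.29, 4.79 and 4.09 with macroH2A1.1 siRNA, against 4.06, 3.08, 3.92 and 3.31 with control siRNA. Every macroH2A1.1 siRNA sample lay above every control sample, although control replicate 1 came close to macroH2A1.1 siRNA replicate 4. Means were 4.55 ± 0.44 with macroH2A1.1 siRNA and 3.59 ± 0.47 with control siRNA (SD, n = 4 each). Atp2a2 rose by 0.96 (SE 0.08 with the block, limma adjusted p = 0.013), and without the block the SE was 0.28 and the limma adjusted p 0.248. Pairs differed by 0.99, 1.20, 0.87 and 0.79. An exact permutation test gave p = 0.0286 (two-sided), the smallest possible. Among all genes 4.24% had groups apart with macroH2A1.1 siRNA higher and 3.71% with it lower, against 1 (Atp2a2) and 1 (Casq1) of the 9.

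The probe for both forms read 2.13, 1.77, 2.03 and 1.41 with macroH2A1.1 siRNA, against 1.59, 0.60, 1.38 and 0.98 with control siRNA. Its groups overlap. The difference of 0.70 (SE 0.13 with the block) was in the same direction and missed the threshold among all probes, with limma adjusted p = 0.056 with the block and 0.369 without it. Over the mean of both probes Atp2a2 differed by 0.83, with limma adjusted p = 0.021 in the blocked fit.

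Atp2a1 encodes SERCA1, the pump of fast fibres, and was measured by 1 probe at chr7:133591703-133591762, minus strand (mm9). It read 4.56, 4.06, 4.25 and 4.11 with macroH2A1.1 siRNA, against 4.66, 3.86, 4.28 and 4.11 with control siRNA. The samples of both groups interleave. The difference of 0.02 (95% interval -0.16 to 0.19 with the block) had a limma adjusted p of 0.904 with the block and 0.990 without it, and its sign changed with the scaling.

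Sln encodes sarcolipin, a small membrane protein that inhibits SERCA pumps. Its probe at chr9:53701574-53701633, plus strand (mm9), was well above background on 3 of 4 macroH2A1.1 siRNA arrays and 1 of 4 control arrays. It read -4.16, -3.41, -4.38 and -3.02 with macroH2A1.1 siRNA, against -4.40, -5.32, -4.70 and -4.58 with control siRNA. The groups only just fail to overlap, with macroH2A1.1 siRNA replicate 3 beside control replicate 1. With dim probes kept the difference was 1.01, with limma adjusted p = 0.263 with the block and 0.449 without it. Its signal was near background in both groups, and no direction is called.

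The voltage sensor and the release channel were measured well, and their differences of 0.14 and 0.30 did not pass the threshold. Cacna1s, the pore subunit of the L-type channel that senses voltage, had 2 probes on the plus strand of chromosome 1 (mm9). The brighter, at 138016020 to 138016079, read 7.14, 5.97, 6.75 and 6.47 with macroH2A1.1 siRNA, against 6.90, 5.98, 6.49 and 6.42 with control siRNA. Both groups cover nearly the same span. Its difference of 0.14 (95% interval -0.05 to 0.32 with the block) had a limma adjusted p of 0.291 with the block and 0.917 without it. The other probe, at 138015618 to 138015677, differed by 0.13.

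Ryr1, the release channel, was measured by 1 probe at chr7:29788789-29789487, minus strand (mm9), which crosses at least 1 intron. It read 4.71, 3.65, 4.39 and 4.20 with macroH2A1.1 siRNA, against 4.46, 3.42, 4.28 and 3.59 with control siRNA. The groups overlap, although each macroH2A1.1 siRNA sample was higher than the control sample of its number. The difference of 0.30 (SE 0.09 with the block) did not pass, with limma adjusted p = 0.112 with the block and 0.773 without it. Pairs differed by 0.24, 0.24, 0.11 and 0.61. Leaving out single arrays moved the unblocked difference between 0.13 (without control replicate 2) and 0.50 (without macroH2A1.1 siRNA replicate 2). It was under 0.20 also without control replicate 4 (0.18) and without macroH2A1.1 siRNA replicate 1 (0.14), and was 0.48 without control replicate 1. In the blocked fit on the authors' series values Ryr1 did pass, at 0.33 and limma adjusted p = 0.048, and in the other blocked settings the adjusted p was up to 0.266.

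**Figure D2:**
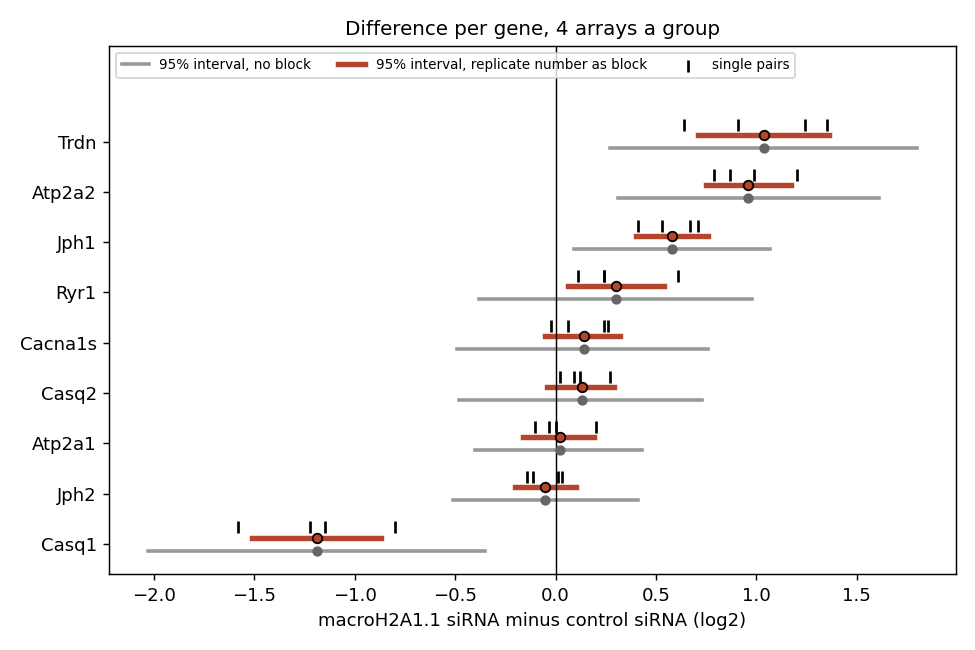
Points give the difference between macroH2A1.1 siRNA and control siRNA for 9 genes (log2), with 95% intervals from limma unblocked (grey) and blocked on the replicate number (red). Short vertical marks give the 4 pairs. Trdn, Atp2a2 and Jph1 lie above 0 and Casq1 below 0 in each pair. Ryr1 and Casq2, which did not pass the threshold, also lie above 0 in each pair.

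Each column of arrays on the slide holds 1 group only. The macroH2A1.1 siRNA arrays are in columns 2 and 4 and the control siRNA arrays in columns 1 and 3. So siRNA and column cannot be told apart, within pairs too, and neither the replicate block nor a column block separates them. With the column as a random block, Casq1, Trdn, Atp2a2 and Jph1 had limma adjusted p between 0.182 and 0.262. The rows of arrays each hold 2 samples of both groups. Within row 1 and row 2, Casq1 differed by -0.98 and -1.40, Trdn by 1.13 and 0.94, Atp2a2 by 1.1 and 0.83, and Jph1 by 0.62 and 0.54. The direction was the same in both rows for these 4 genes, and with the row as a block their limma adjusted p lay between 0.227 and 0.292. Arrays of the same replicate number sit side by side, so replicate number and slide position cannot be told apart.

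The difference between the log2 values of paralogs on the same array was compared between groups, to see whether they changed unequally. Atp2a1 minus Atp2a2 read -0.49, -0.22, -0.54 and 0.01 with macroH2A1.1 siRNA, against 0.60, 0.78, 0.36 and 0.80 with control siRNA. The groups were apart, and the shift of -0.94 toward Atp2a2 had p = 0.0286 in an exact permutation test (two-sided, 0.043 after Benjamini-Hochberg over the 3 contrasts made). Jph1 minus Jph2 read -2.58, -2.72, -2.66 and -3.01 with macroH2A1.1 siRNA, against -3.10, -3.40, -3.21 and -3.79 with control siRNA. These groups were apart too, with a shift of 0.63 toward Jph1 (exact permutation p = 0.0286, adjusted 0.043). On the authors' series values the Jph contrast was 0.37 and the groups overlapped (exact permutation p = 0.0857).

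Casq1 minus Casq2 read -4.75, -3.78, -4.21 and -5.69 with macroH2A1.1 siRNA, against -3.33, -2.89, -2.96 and -3.98 with control siRNA. The groups overlap because control replicate 4 lay below macroH2A1.1 siRNA replicate 2. The shift of -1.32 away from Casq1 had p = 0.0571 (exact permutation test, two-sided, adjusted 0.057). Within pairs the contrast was lower each time, by -1.42, -0.89, -1.25 and -1.71, and within pairs all 3 contrasts had p = 0.125, the smallest that 4 pairs allow in an exact permutation test. Only shifts are compared here, since signals of different probes are not on a common scale.

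**Figure D3:**
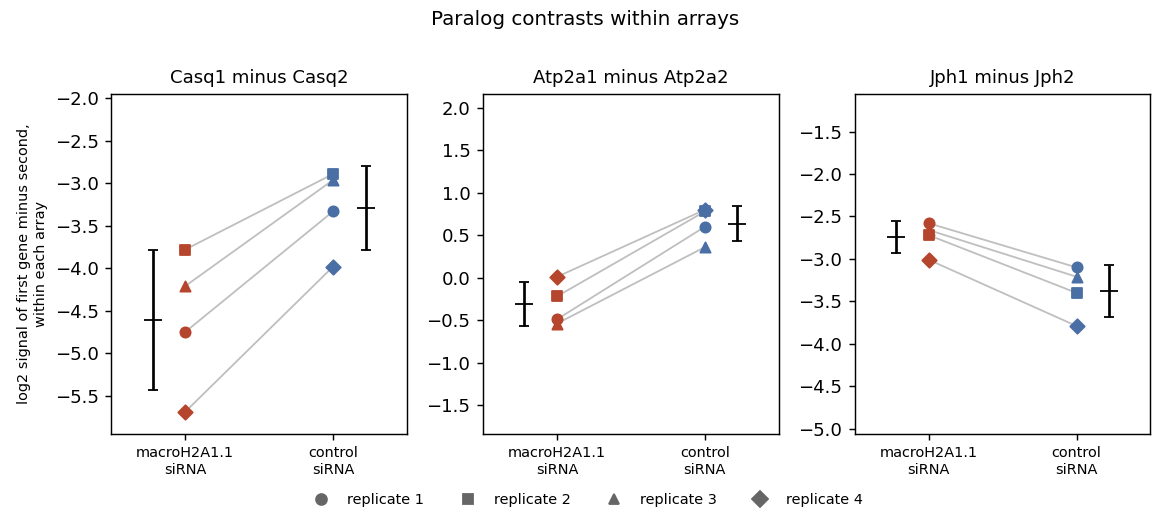
For 3 pairs of paralogs, the log2 signal of the first gene minus that of the second is plotted within each array, macroH2A1.1 siRNA on the left and control siRNA on the right, with lines joining samples of the same replicate number and bars for the mean ± SD. The Atp2a and Jph contrasts separate the groups, and the Casq contrast overlaps through replicates 2 and 4.

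Most of the genes varied together across samples, Casq1 and Jph2 less closely than the others. Replicate 2 had the lowest value for 8 of 9 genes among control samples and for 7 of 9 among macroH2A1.1 siRNA samples. After each group's mean was removed, the 28 pairs of genes without Casq1 had a median Pearson correlation of 0.84 over the 8 arrays (0.32 to 0.96). That is a description of arrays matched by replicate number and slide position, with a shared scaling. The 8 pairs with Casq1 had a median of 0.40, from -0.23 with Jph2 to 0.76 with Atp2a2. Jph2 correlated at 0.32 with Atp2a2, 0.39 with Atp2a1, 0.48 with Trdn and 0.54 with Ryr1, and at 0.80 with Casq2. The level of the 12 myotube markers (median deviation from each gene's mean) was 0.54, -0.14, 0.40 and 0.06 with macroH2A1.1 siRNA, against 0.14, -0.54, 0.09 and -0.28 with control siRNA. Replicate 2 was lowest in both groups.

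Of these 12 myotube markers 6 rose and 0 fell in the blocked fit, where 4.13% of all genes rose and 3.88% fell, with a median difference of 0.42. Without the block 0 members of any marker list passed in limma. The summed linear signal of the myotube markers relative to the 75th percentile ran from 1807 to 2817 with macroH2A1.1 siRNA and from 1469 to 2071 with control siRNA. Such sums, here and below, mostly follow the brightest probes of a list. Probes are not on a common scale, so the sums do not give the amount of a cell type. In bulk RNA a change in the number of myotubes and a change of RNA per myotube cannot be told apart, and the part of the marker shift in the calcium genes' differences was not tested. Casq1 fell while these 6 markers rose, and Jph2 and Atp2a1 read -0.05 and 0.02. Of 8 measured markers of cycling myoblasts 0 passed in limma with the block, and their summed signal was 26.8 to 52.0 with macroH2A1.1 siRNA and 25.5 to 42.9 with control siRNA. Markers of fast fibres gave 6 higher and 0 lower of 10, and Tnnc2 and Mylpf among the 6 are also myotube markers. Myh4 of this list differed by -1.05 and did not pass (limma adjusted p = 0.061 with the block, 0.630 without it). Those of slow fibres gave 4 higher and 2 lower of 8. The 2 were Myh7 at -1.32 and Myh7b at -0.90 (limma adjusted p = 0.013 and 0.018 with the block, 0.318 and 0.452 without it). Of 7 fibroblast markers 0 rose and 2 fell, with summed signal of 828 to 1169 with macroH2A1.1 siRNA and 936 to 1212 with control siRNA. Of 6 adipocyte markers 2 could be tested, and Adipoq, Cidec, Plin1 and Lep did not pass the filter. Both rose, Fabp4 by 1.41 and Pparg by 0.39 (limma adjusted p = 0.028 each with the block, 0.464 and 0.453 without it). Fabp4 is dim: control replicates 1 and 4 read -4.55 and -5.22, and the Sln controls, near background, read -5.32 to -4.40. The filter asks for signal above background in either group only, so the size of the Fabp4 difference is uncertain. The summed signal of Fabp4 and Pparg was 2.68 to 4.08 with macroH2A1.1 siRNA and 2 to 3.26 with control siRNA. Of 5 measured macrophage markers and 2 endothelial ones 0 passed in limma with the block, and Ptprc, Cdh5 and Tek did not pass the filter. Among the macrophage markers the median difference was -0.04, but Cd68 differed by 1.32 (limma adjusted p = 0.090 with the block, 0.403 without it). Of 4 measured markers of neurons and Schwann cells, S100b rose by 0.93 (limma adjusted p = 0.034 with the block, 0.167 without it). The part of these markers in the calcium genes' differences was not tested.

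Other genes of calcium handling were taken from a list of 85 symbols in 9 roles, of which 72 could be tested. In the blocked limma fit 8 rose and 2 fell, where 4.13% and 3.88% of all genes did, and 0 passed without the block. Their median difference was 0.13, with 45 of the 72 above 0. Over all genes the median was 0.00, with 6863 of 13720 above 0. Without pair 1, without pair 3 or with dim probes kept, no gene on the array passed in the blocked fit, so these calls share the limits of those above.

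Around the release channel, 2 of 9 measured genes rose and 1 fell. Jsrp1, which encodes the junctional protein JP-45 that binds both Cacna1s and calsequestrin, rose by 0.35 (limma adjusted p = 0.039 with the block, 0.256 without it) and its groups did not overlap. Ryr3, a second release channel found in immature muscle, rose by 0.35 (limma adjusted p = 0.049 with the block, 0.714 without it). Fkbp1b, a small protein that steadies closed ryanodine receptors, fell by 0.48 (limma adjusted p = 0.034 with the block, 0.321 without it). At the T-tubule 2 of 11 rose, Cav3 by 0.43 and Bin1, which bends the membrane into tubules, by 0.28 (limma adjusted p = 0.042 and 0.049 with the block, 0.578 and 0.376 without it).

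In the lumen and membrane of the store, 3 of 12 measured genes rose and 1 fell. Mrln encodes myoregulin, a peptide inhibitor of SERCA in skeletal muscle, and rose by 0.79 (SE 0.13 with the block, limma adjusted p = 0.034, and 0.294 without it). Srl, which encodes the calcium-binding glycoprotein sarcalumenin, rose by 0.61 (limma adjusted p = 0.047 with the block, 0.261 without it), with macroH2A1.1 siRNA replicate 2 missing from its fit. Tmem38b, a potassium channel of the store membrane, rose by 0.49 (limma adjusted p = 0.024 with the block, 0.402 without it). Calu, the calcium-binding protein calumenin of the secretory pathway, fell by 0.37 (limma adjusted p = 0.034 with the block, 0.220 without it), and its groups did not overlap.

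Among 9 cytosolic calcium binders and calmodulin kinases 1 rose: Camk2b, a calmodulin-dependent kinase subunit, by 0.87 (SE 0.06 with the block, limma adjusted p = 0.011, and 0.340 without it). Its pairs were close, at 0.88, 0.88, 0.74 and 0.99. No gene passed among store entry (8 measured), calcium extrusion (5), IP3 receptors (3), the mitochondrial uniporter (6) and calcineurin signalling (9). Stim1, the sensor of store calcium, read 0.15 (limma adjusted p = 0.241 with the block), Itpr2 read -0.36 (0.097) and the plasma membrane pump gene Atp2b1 read 0.21 (0.211).

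**Figure D4:**
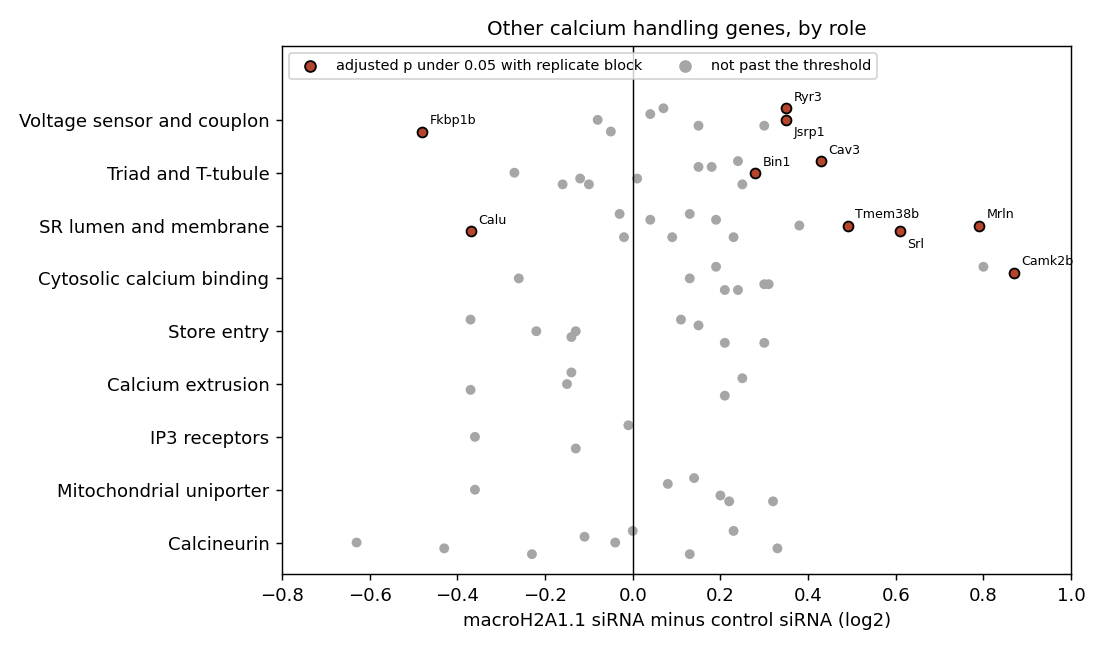
Each point is 1 of 72 calcium handling genes outside the 10, placed by its difference between macroH2A1.1 siRNA and control siRNA (log2) and by role. Red points passed in the blocked limma fit: 8 lie above 0 and 2, Fkbp1b and Calu, below it.

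For the 3 genes with the largest differences, the genes most like them over the 8 arrays were found by Pearson correlation among 13667 others. Casq1 was followed by Rnf20 (r = 0.954), Cdh11 (0.942) and Hs3st3a1 (0.941), Trdn by Tmod1 (0.990), Bola1 (0.988) and Adamts8 (0.985), and Atp2a2 by Tpm1 (0.993), Casp1 (0.993) and Srgn (0.989). The highest likeness of Casq1 was below that of the other 2 genes. With 8 arrays in 2 groups such values are a description of these samples.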

How the data were processed

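RNA (500 ng a sample) was labelled with Cy3, per the labels' protocols. The deposited spot intensity comes from Agilent Feature Extraction 10.7.3.1 with probe positions in mm9, per the file headers. The deposited series table holds log2 values whose scale is inferred from the values; it served as an alternative. From the processed intensity, log2 values were taken and the 75th percentile of the array subtracted. Outlier spots counted as missing, and repeated spots of a probe were averaged. A gene name was found for 33003 of 55681 probes (RefSeq table of GRCm38.p6, names only). The 25000 probes kept exceeded background clearly on every array of either group. Each gene was represented by its brightest kept probe (13720 genes). The comparison used lmFit and eBayes of limma 3.58.1 (R 4.3.3) with Benjamini-Hochberg adjustment at 0.05, first without a block, then blocked on replicate number. Deviations of samples of the same number correlated at 0.61, 0.55, 0.66 and 0.41, which pairs them by the rule that each exceeds 0.1. Single genes and paralog contrasts had exact permutation tests. The scripts were tested on simulated data. Genes named are the 10, the calcium genes past the threshold (up to 5 a role, otherwise the brightest 2, not all printed) and the 3 most correlated. The genes, lists and tests were chosen with earlier results of these data known. Alternatives were normexp (offset 50), quantile normalization, median centring, series values, other filters, the mean of probes, row and column blocks, array weights, a trended and robust eBayes, and omission of arrays or pairs. Python 3.11.15, pandas 2.3.3 and matplotlib 3.10.9 were used.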

Additional observations from a re-analysis of the deposited data

How the results depend on the processing

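Without the block, 0 of the 9 genes passed in limma under any of 19 other settings. With the replicate block 4 passed, also with normexp, quantile normalization, median centring, the filter on all 8 arrays and the mean of probes, 5 passed with the series values, and 0 (limma, 6 of 10 with an unadjusted p under 0.05) with no filter; leaving out a pair gave 0 (pairs 1 and 3), 2 (pair 2) and 4 (pair 4). Over all genes the count of 3 became 1 with median centring, 5 with the filter on all 8 arrays, 10 with the row block, 7 with the random column block, 6 with array weights and 0 to 11 without single arrays. With the replicate block it was 1099, then 1890 with normexp, 1042 with quantile normalization, 795 with median centring and 1712 with series values. It was 0 with no filter (limma, 3933 of 23893 genes with an unadjusted p under 0.05), 1340 with the filter on all 8 arrays and 936 with the mean of probes. Leaving out a pair gave 0 (pairs 1 and 3), 135 (pair 2) and 590 (pair 4). Over all probes the count was 1 without and 787 with the replicate block. Casq1, Trdn, Atp2a2, Jph1 and Ryr1 kept their sign in all 30 alternatives. Leaving out single arrays turned the sign of Cacna1s (-0.05 to 0.34), Jph2 (-0.21 to 0.08), Casq2 (-0.07 to 0.33) and Atp2a1 (-0.10 to 0.16). Atp2a1 also read -0.02 with normexp, -0.00 with median centring, -0.01 with series values, all with or without the block, -0.03 with array weights and -0.04 to 0.05 without single pairs. The Atp2a contrast (-0.94) and the Jph contrast (0.63) missed the threshold within pairs (the replicate block, adjusted p = 0.125 in the exact permutation test, the smallest possible) and with series values (-0.96 and 0.37, adjusted p = 0.086). Without single arrays they were -1.05 to -0.87 and 0.49 to 0.72, with 4 of 8 past the threshold each; the Casq contrast was -1.59 to -0.95. The cause of these changes was not tested. Signals near background limit Sln, the third Trdn probe and the size of the Jph1 and Fabp4 differences.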
